A study of Mus musculus with 9 samples.

Results

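Peaks at 9 genes of cell-to-cell contact were followed through the chromatin marks of primary oviductal muscle cells. They were 4 connexin genes (Gja1, Gja4, Gjc1 and Gjb2), 4 cadherin genes (Cdh2, Cdh5, Cdh11 and Cdh13) and Ctnnb1, which encodes beta-catenin. The 9 were chosen by name, from 21853 protein-coding genes. All peaks that overlapped a gene body or the 50 kb on either side were taken, and this stretch is called the locus. A promoter peak lay, with at least 1 bp, within 1 kb of where a protein-coding transcript starts. Other peaks were called intragenic when they touched the gene body and flanking when they did not.

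The cells came from WT mice of 8 to 12 weeks on D2 of pregnancy. Oviducts were minced, enzymatically digested and briefly cultured, and 50000 fixed cells entered each library. Libraries were made by ChIC-Seq, in which an antibody directs a fusion of protein A and MNase to cut chromatin at a histone mark. There were 3 replicates for H3K27ac, 3 for H3K4me1 and 3 for IgG, the antibody control, all from this 1 state, so that the comparisons are between marks and not between conditions. The labels do not say whether replicates came from separate animals, so the spread between them may be technical. Each replicate of a mark had 1 peak list, and each mark had 1 further list called on its 3 replicates pooled.

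Gap junctions are channels between neighbouring cells, each built of 2 docked half-channels of connexin proteins, and in smooth muscle they pass the electrical signals that let cells contract together. Cadherins hold cells to each other through calcium-dependent contacts, and most bind catenins inside the cell. Beta-catenin links classical cadherins to the cytoskeleton and is also a co-activator of transcription in Wnt signalling. H3K27ac is found at active promoters and enhancers, and H3K4me1 mainly at enhancers and on the shoulders of promoters. A peak shows that a mark was enriched over IgG; it does not measure RNA or protein.

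The H3K27ac libraries had 40551842 to 42040809 fragments, the H3K4me1 libraries 41891318, 78891920 and 64063996, and the IgG libraries 3110985 to 3713369. The calls were permissive. The lowest pileup listed equalled 12 to 14 fragments in the H3K27ac replicate lists and 14, 25.9 and 22 in those of H3K4me1. A missing peak therefore means only that no enrichment above that level was listed. Depth and this level thus differed between the marks, and their part in the comparisons was not tested. H3K27ac replicate 1 alone was called against IgG replicate 1. H3K27ac replicate 2 shared IgG replicate 2 with H3K4me1 replicates 1 and 2, and the third replicates of both marks shared IgG replicate 3. The 9 loci, 2443.31 kb in sum, held 904 peaks of the 8 lists. Of the 711 in the replicate lists, 11.8% reached 1.3 on the −log10 p-value scale, and among the 38 promoter peaks 44.7% did. Of all peaks in each replicate list, 11.1% to 19% did. Peaks at or above this value are called strong peaks. Replicate lists held 98 to 137 H3K27ac peaks and 102 to 142 H3K4me1 peaks in the 9 loci.

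The cells' identity was checked on marker genes. Of 8 smooth muscle markers, 3 had a promoter peak in all 6 replicate lists (Acta2, Des and Smtn), where 24.3% of all protein-coding genes did. The muscle count lies near this share and does not settle the cells' identity. Myh11, the smooth muscle myosin heavy chain, had a promoter peak in 1 list. Of 8 stromal markers 6 had a promoter peak in all 6 lists, among them Col1a1, Dcn and Lum. None of the 8 endothelial, 8 epithelial or 8 blood markers did, but the endothelial genes Emcn and Tek had a promoter peak in 5 and 4 lists, the epithelial Krt8 in 4 and the blood cell gene Ptprc in 3. The muscle gene Tagln had one in 5 lists, Cnn1 in 3, and Lmod1 and Myocd in 2. The peak lists cannot tell in which cells a member gene was marked.

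The sequences in front of 4 genes, and 3 stretches inside genes, are printed because the peaks described further on lie at or near them, or are missing there. The promoter sequences are the 250 bases before a RefSeq start site, from a RefSeq table on GRCm38.p6 that matched 4 of the 9 genes by symbol. It held a pair of windows for Ctnnb1, of which the upstream one is shown. Capitals mark matches to any of 8 motifs searched on both strands in windows of 300 bases, from 250 before to 50 after the start. The motifs were AP-1 (TGANTCA), CRE (TGACGTCA), TATA box (TATAAA), GC box (GGGCGG), E-box (CACGTG), TEAD (GGAATG), TCF/LEF (CTTTGA) and the CArG box. The matches did not overlap each other.
Gja1 promoter, chr10:56377050-56377299, plus strand: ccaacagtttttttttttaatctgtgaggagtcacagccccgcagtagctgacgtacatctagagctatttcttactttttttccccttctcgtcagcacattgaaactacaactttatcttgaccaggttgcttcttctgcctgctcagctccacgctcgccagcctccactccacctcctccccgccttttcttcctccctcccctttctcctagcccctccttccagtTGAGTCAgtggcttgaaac
Gja4 promoter, chr4:127314040-127314289, minus strand: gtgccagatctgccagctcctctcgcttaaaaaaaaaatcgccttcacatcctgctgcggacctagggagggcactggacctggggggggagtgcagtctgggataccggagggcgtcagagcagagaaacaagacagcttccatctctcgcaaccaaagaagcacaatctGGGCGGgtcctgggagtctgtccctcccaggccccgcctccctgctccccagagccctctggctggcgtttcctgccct
Gjb2 promoter, chr14:57104703-57104952, minus strand: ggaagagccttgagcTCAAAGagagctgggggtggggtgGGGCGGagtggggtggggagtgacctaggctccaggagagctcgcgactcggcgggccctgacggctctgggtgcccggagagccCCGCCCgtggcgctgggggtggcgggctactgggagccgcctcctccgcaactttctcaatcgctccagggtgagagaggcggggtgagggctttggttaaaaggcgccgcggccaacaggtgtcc
Ctnnb1 promoter, chr9:120933150-120933399, plus strand: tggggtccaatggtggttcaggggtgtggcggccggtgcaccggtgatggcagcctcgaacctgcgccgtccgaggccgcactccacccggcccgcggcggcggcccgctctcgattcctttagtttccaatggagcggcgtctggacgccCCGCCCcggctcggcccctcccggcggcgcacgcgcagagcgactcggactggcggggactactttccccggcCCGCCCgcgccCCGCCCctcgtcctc
Gja1 had 1 AP-1 match, from −19 to −13 bp of the RefSeq start, and no GC box. An AP-1 match was present in 7.81% of all 32851 RefSeq promoter windows and a GC box in 35.7%. Gja4 had 1 GC box, Gjb2 had 2 and Ctnnb1 had 3. Gjb2 also had a TCF/LEF match, which 16% of windows held. No CArG box, E-box, CRE, TEAD or TATA box match was found in the 4 windows shown, while the other Ctnnb1 window held a TATA box from −120 to −115 bp of its start. These motifs were present in 1.63%, 7.15%, 1.79%, 14.7% and 13.6% of all windows. GC content was 50% for Gja1, 61.2% for Gja4, 69.2% for Gjb2 and 74.8% for Ctnnb1, against a median of 52.4%. These are matches of letters and not bound sites.

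Promoter peaks separated the genes into groups. H3K27ac marked a promoter of 5 of the 9 genes in all 3 replicates (Gja1, Gjc1, Cdh2, Cdh11 and Ctnnb1), where 45.9% of all protein-coding genes met this. H3K4me1 did so at 2 of the 9 (Gjc1 and Cdh2), against 27.9% of all genes. The same pair carried both marks in all 6 lists, against 24.3%. At both genes this joins peaks at different start sites. The count of 2 became 4 without H3K4me1 replicate 2, 1 with peaks of at least 5 times the mean coverage, and 0 with strong peaks alone, with windows of 250 bp or with 50% of a window required. Gja4 and Gjb2 had no promoter peak in any of the 6 lists, against 32.8% of all genes. With 9 genes these counts lie near the shares of all genes and are descriptions of the 9.

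**Figure D1:**
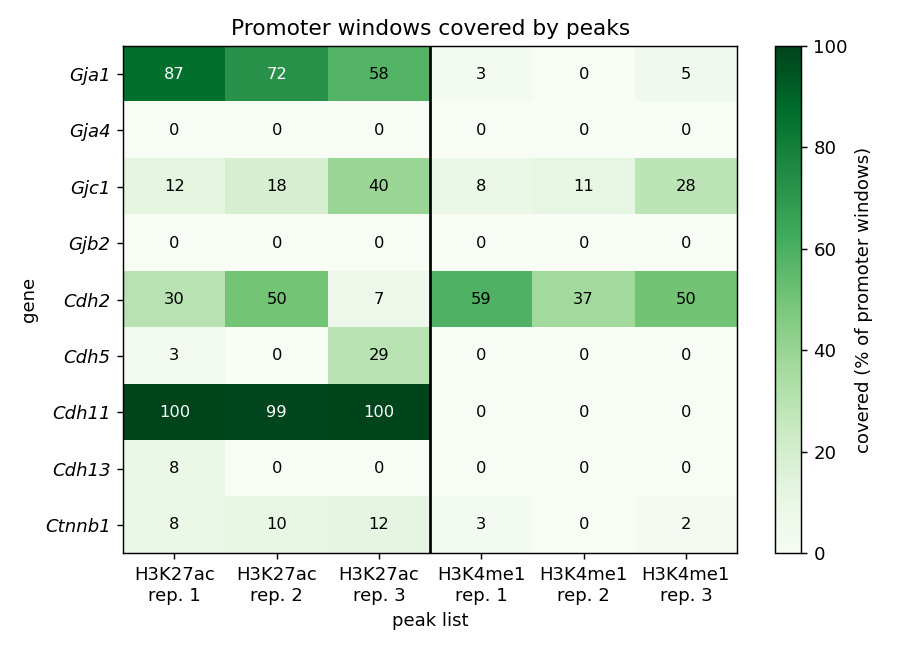
Share of the promoter windows of each gene (rows) covered by peaks of each replicate list (columns), in percent of the windows' length. Cdh11 is covered at 99.5% or more in the 3 H3K27ac lists and at 0% in the 3 H3K4me1 lists, and Gja4 and Gjb2 are at 0% in all 6.

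Per replicate list, 7, 5 and 6 of the 9 genes had an H3K27ac promoter peak and 4, 2 and 4 had an H3K4me1 promoter peak. Of all genes, 55.3%, 54.1% and 53.0% had one for H3K27ac and 45.4%, 41.9% and 41.5% for H3K4me1, so the order of the marks was also that of all genes. The counts of the 9 genes did not overlap between the marks with these windows, but did with windows of 250 bp or 3 kb (exact permutation p of 0.2 and 0.3). The means were 6 ± 1 and 3.33 ± 1.15 genes (SD, n = 3), and the exact permutation test, two-sided, gave p = 0.1, the smallest that 3 against 3 lists allow. H3K27ac peaks covered 25.2%, 26.4% and 26.4% of the 9 genes' promoter windows, and H3K4me1 peaks 9.69%, 6.3% and 11.5%. The means were 26 ± 0.658% and 9.17 ± 2.66% (SD, n = 3), 2.83 times as much for H3K27ac, with p = 0.1 by the same exact test. The means were 20.6% and 12.3% with windows of 3 kb, and 19.7% and 0.466% with strong peaks alone. This order too was that of all genes, whose median promoter coverage was 13.6%, 12.4% and 9.42% for H3K27ac and 0% in each H3K4me1 list. With the same IgG library on both sides, the difference was 18.4 percentage points for IgG replicate 2 and 14.8 for IgG replicate 3.

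Over whole loci the order of the marks turned round. H3K27ac peaks covered 6.42%, 5.16% and 4.29% of the 9 loci together, and H3K4me1 peaks 8.39%, 7.98% and 7.32%. The means were 5.29 ± 1.07% and 7.9 ± 0.541% (SD, n = 3), 1.49 times as much for H3K4me1, and the exact permutation test, two-sided, gave p = 0.1. Within IgG replicate 2 and IgG replicate 3 the difference, H3K27ac minus H3K4me1, was −3.03 percentage points in each. Most of the covered length came from Cdh11 and Cdh2. The replicate lists of the marks did not overlap at 4 genes, with H3K27ac higher at 1 (18.3% of all genes) and H3K4me1 higher at 3 (13.2% of all genes). The median locus coverage of all genes was 4.14% to 5.53% in the H3K27ac lists and 4.05% to 4.8% in the H3K4me1 lists. Of the genome, at the effective size set in peak calling, H3K27ac lists covered 6.29%, 4.45% and 3.96% and H3K4me1 lists 6%, 5.87% and 5.63%. Divided by these shares, the mean coverage of the 9 loci was 1.09 for H3K27ac and 1.35 for H3K4me1 (exact permutation p = 0.1).

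**Figure D2:**
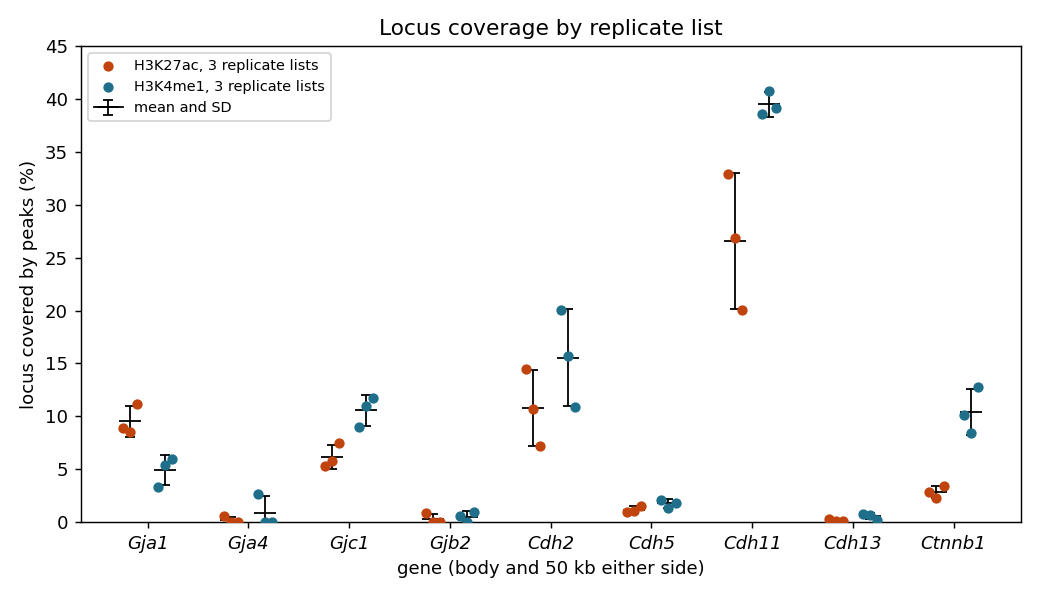
Share of each gene's locus covered by peaks, in percent. Points are the 3 replicate lists of each mark, and bars are the mean and SD. The H3K4me1 points lie above the H3K27ac points without overlap for Gjc1, Cdh11 and Ctnnb1, and below them for Gja1.

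Gja1 encodes connexin 43, the main connexin of many smooth muscles. It lies on chr10:56377330-56402513 (GRCm38, plus strand), and no other protein-coding gene reaches into its locus. H3K27ac peaks covered 86.7%, 72% and 57.8% of its promoter windows in replicates 1, 2 and 3. H3K4me1 peaks covered 3.11%, 0% and 4.6%. The replicate lists of the marks did not overlap, but the share of all genes with this order at the promoter was not counted. The median promoter coverage of all genes was 9.42% to 13.6% in the H3K27ac lists and 0% in each H3K4me1 list. The pooled H3K27ac list covered 86.1%, and the pooled H3K4me1 list 38.9%, which included a peak from −1242 to −479 bp. The Gja1 sequence printed above lay inside the H3K27ac peaks of replicates 1 and 3 and just upstream of that of replicate 2.
In replicate 1 the H3K27ac peak ran from −499 to 4516 bp of the gene start and had a fold enrichment of 2.08. In replicate 2 it ran from 52 to 3854 bp, with 2.17. In replicate 3 it was split into peaks from −288 to 269 bp and from 1144 to 3917 bp, with 1.7 and 2.08. The nearest H3K4me1 peaks began 2642, 5867 and 1816 bp downstream of the gene start, beyond all 5 start sites. Those of replicates 1 and 3 still counted as promoter peaks, since they lay within 1 kb of the last start, 1758 bp into the gene.
Gja1 was the only member whose locus was covered more in every H3K27ac replicate list than in any H3K4me1 replicate list. The pooled lists had the opposite order, at 9.16% for H3K27ac and 10.2% for H3K4me1. H3K27ac covered 8.93%, 8.49% and 11.2% of the locus, and H3K4me1 3.36%, 5.45% and 6%. The difference was 4.59 percentage points (exact permutation p = 0.1 and, adjusted over all 21853 genes, 0.317). With peaks of at least 5 times the mean coverage it was 2.81 points and the lists overlapped (exact permutation p = 0.3). Of all genes 18.3% had the same order without overlap of the lists. Outside promoters no stretch of the locus was covered in more than 4 of the 6 lists, and 4 stretches reached this number, the longest from 7035 to 7742 bp.

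Gjc1 encodes connexin 45, which forms channels of low conductance. It lies on chr11:102799579-102819700 (minus strand) and shares its locus with Adam11, Eftud2 and Higd1b. H3K27ac covered 12.4%, 18.3% and 39.5% of its promoter windows and H3K4me1 7.98%, 10.9% and 28.2%. These ranges overlapped. The third replicate was the highest for both marks.
No single start had H3K4me1 within 1 kb in all 3 replicates: the innermost had it in replicates 1 and 2, and the outer starts in replicate 3. Its promoter peaks mostly sat beside the start sites rather than over them. H3K27ac covered the first start in 1 of 3 lists, as did H3K4me1. Neither mark covered the start 521 bp further in, and neither covered the one 14799 bp in. Over the locus H3K27ac covered 5.32%, 5.8% and 7.45%, and H3K4me1 8.95%, 11% and 11.8%. H3K4me1 was 1.71 times as wide, without overlap (exact permutation p = 0.1, adjusted over all genes 0.317), an order that 13.2% of all genes had. Divided by the genome share of each list, the lists overlapped (exact permutation p = 0.3). With strong peaks alone the order was the opposite, at 2.82% for H3K27ac and 1.54% for H3K4me1. The gene body held 4 of its H3K27ac regions with H3K4me1 on them, from 3877 to 19119 bp of the gene start.

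Gja4 encodes connexin 37, a connexin of arterial endothelium, and lies on chr4:127311421-127314039 (minus strand). No promoter or intragenic peak was listed for it in any of the 8 lists. Replicate 1 of H3K27ac had 2 flanking peaks and replicate 1 of H3K4me1 had 4, and the other 4 replicate lists had 0. Those first replicates covered 0.547% and 2.7% of the locus. The sequence before its start, printed above, was thus outside every peak.
Gjb2 encodes connexin 26, an epithelial connexin, and lies on chr14:57098600-57104702 (minus strand), next to Gja3 and Gjb6. It also had no promoter or intragenic peak. Flanking peaks numbered 2 in H3K27ac replicate 1, 2 in H3K4me1 replicate 1 and 2 in H3K4me1 replicate 3, and none was a strong peak. No place in its locus was covered in more than 1 of the 6 lists. For both genes the ranges of the marks overlapped, with exact permutation p of 1 for Gja4 and 0.7 for Gjb2.

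Cdh11 encodes OB-cadherin, a cadherin of mesenchymal cells. It lies on chr8:102632095-102785642 (minus strand), with no other protein-coding gene in its locus, and was the most widely marked of the 9 genes. H3K27ac covered its promoter window at 100%, 99.5% and 100%. H3K4me1 covered 0% in all 3 replicates and in the pooled list. Cdh11 was the only member with H3K27ac in all 3 replicates and H3K4me1 in none, which 4.19% of all genes showed.
The promoter peaks of H3K27ac were broad. They measured 8501, 7345 and 10252 bp, with fold enrichments of 2.21, 2.38 and 2.23, at or above the percentile of 97.2 of their lists. The nearest H3K4me1 peak edges lay at 5133 and 3930 bp in replicates 1 and 2, and at −1688 bp in replicate 3. H3K4me1 peaks thus overlapped the inner part of the H3K27ac block in the gene, but none lay over the start site.

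**Figure D3:**
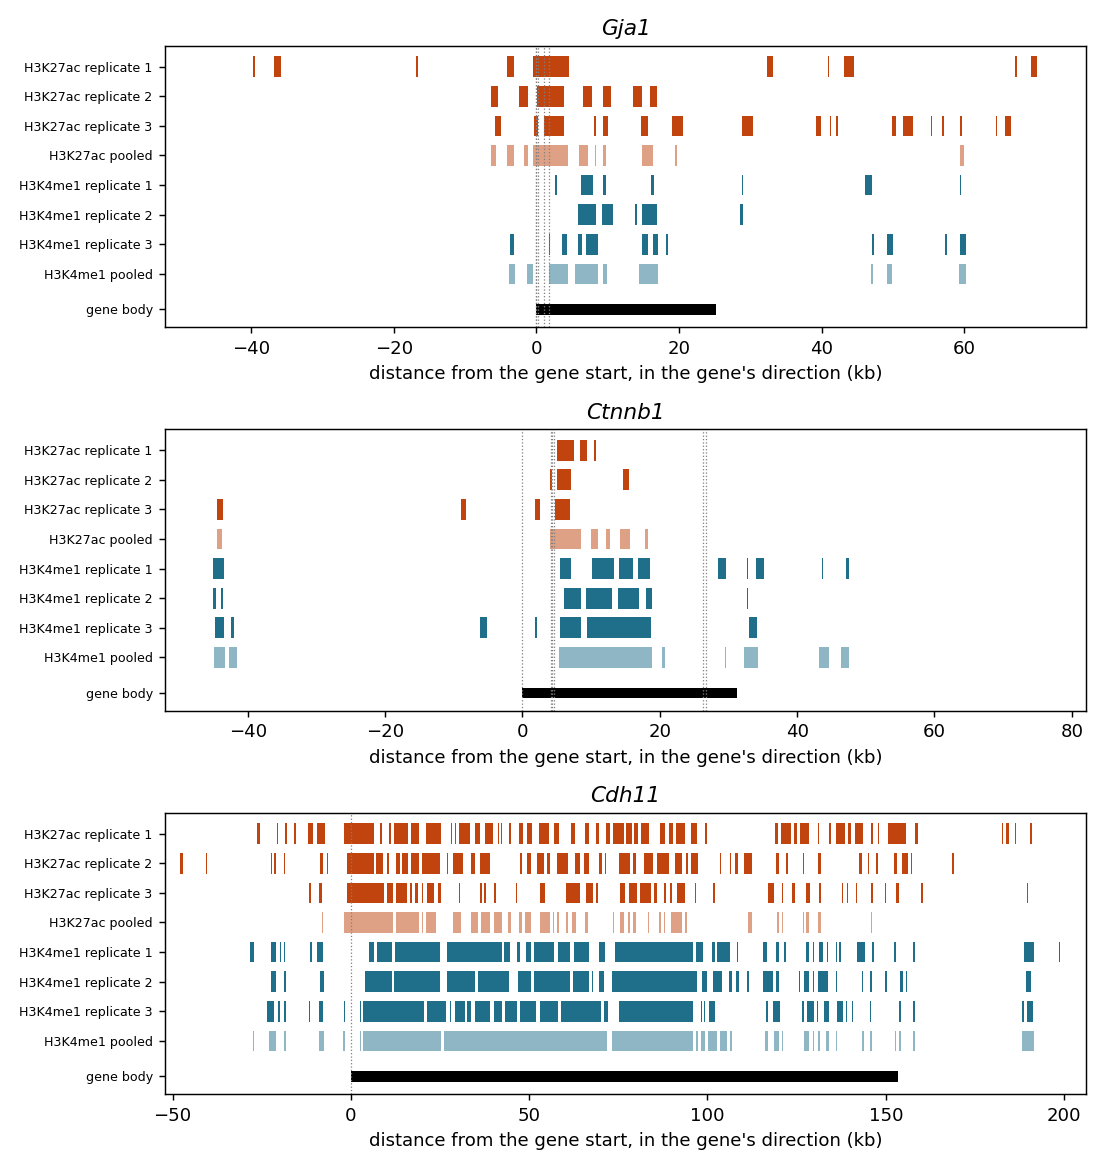
Peaks of the 8 lists (rows; orange H3K27ac, blue H3K4me1, paler rows pooled) in the loci of Gja1, Ctnnb1 and Cdh11, by distance from the gene start in kb in the gene's direction. The black bar is the gene body and dotted lines are start sites of protein-coding transcripts. In Cdh11 the H3K27ac peak lies over the start and H3K4me1 peaks fill much of the gene body behind it. In Ctnnb1 the H3K4me1 peaks past the cluster of starts at 4184 to 4602 bp begin at 5394 bp or later, while the pooled H3K27ac peak, from 4077 to 8477 bp, spans that cluster. The main H3K27ac peaks of replicates 1, 2 and 3 also begin past the cluster, at 5050, 5060 and 4771 bp.

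In the gene body of Cdh11, H3K27ac covered 45.7%, 39.9% and 30.6%, and H3K4me1 58.1%, 63.5% and 59.7%. The widest H3K4me1 peaks were 22014, 23935 and 20812 bp long and lay between 73251 and 97185 bp into the gene. Over the locus H3K27ac covered 32.9%, 26.9% and 20%, and H3K4me1 38.5%, 40.8% and 39.1%. The means, 26.6 ± 6.44% and 39.5 ± 1.16% (SD, n = 3), did not overlap (exact permutation p = 0.1, adjusted over all genes 0.317). Among all genes the Cdh11 locus stood at the percentiles 97.2 to 99.2 for H3K27ac and 99.9 for H3K4me1.
In 19 places outside promoters the locus was covered in all 6 lists. The longest was chr8:102762284-102764403, 2120 bp, from 21239 to 23358 bp of the gene start and in an intron. Its central 300 bases, read along the gene from GRCm38.p6, show what lay under the peaks of every list.
Cdh11 distal, chr8:102763194-102763493, minus strand: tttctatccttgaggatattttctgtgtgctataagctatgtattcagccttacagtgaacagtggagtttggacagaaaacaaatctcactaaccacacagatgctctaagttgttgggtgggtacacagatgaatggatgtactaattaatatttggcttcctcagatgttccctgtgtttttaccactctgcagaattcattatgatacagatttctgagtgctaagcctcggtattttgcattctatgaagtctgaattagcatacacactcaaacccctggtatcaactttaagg
This stretch had a GC content of 38.7% and none of the 8 motifs, hence no capitals, which says only that these letters are not in these 300 bases.

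Cdh2 encodes N-cadherin, the cadherin of muscle and nerve cells. It lies on chr18:16588877-16809246 (minus strand). H3K27ac covered 29.8%, 49.6% and 6.55% of its promoter windows and H3K4me1 59%, 36.7% and 50%. The ranges overlapped, and H3K27ac replicate 3 was the lowest of the 6.
Its 2 start sites differed. At the first, H3K27ac and H3K4me1 each reached the window in 2 of 3 lists. At the other, 139177 bp into the gene, H3K4me1 covered the start itself in all 3 lists and H3K27ac in none, though H3K27ac reached its window in 2 of 3. The 3 H3K4me1 peaks there were 1703, 2707 and 3390 bp long. The count of Cdh2 among genes with both marks in every list therefore joins peaks at different starts.
Over the locus H3K27ac covered 14.4%, 10.7% and 7.21%, and H3K4me1 20.1%, 15.7% and 10.9%. The first replicate was the highest and the third the lowest for both marks, and the groups overlapped (exact permutation p = 0.2). Most peaks were intragenic: 20 to 35 per H3K27ac list and 28 to 41 per H3K4me1 list. Of all Cdh2 peaks in the replicate lists 3.4% were strong, against 10.1% in Cdh11.

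Cdh5 encodes VE-cadherin, the cadherin of endothelial junctions, and lies on chr8:104101625-104144511 (plus strand), with Bean1 in its locus. H3K27ac covered 3.42%, 0% and 29% of its promoter windows and H3K4me1 0% in all 3 lists. The peaks ran from 864 to 2021 bp in replicate 1 and from −161 to 1891 bp in replicate 3. The pooled lists had a promoter peak for each mark. Locus coverage was 0.952%, 1.08% and 1.56% for H3K27ac and 2.14%, 1.37% and 1.81% for H3K4me1, which overlapped (exact permutation p = 0.2). Of the 8 other endothelial markers 1, Emcn, had an H3K27ac promoter peak in all 3 replicates, and Pecam1 had 1 in 1 replicate.

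Cdh13 encodes T-cadherin, which is anchored to the membrane by a lipid and has no catenin-binding tail. At 1041189 bp it is the longest of the 9 genes (chr8:118283733-119324921, plus strand). Its replicate lists held 46 peaks in all. H3K27ac covered 0.265%, 0.143% and 0.123% of its locus and H3K4me1 0.731%, 0.73% and 0.239%. The groups overlapped (exact permutation p = 0.2). A single promoter peak of 169 bp was listed, in H3K27ac replicate 1, and was absent from the pooled list. The best shared place, from 406759 to 406873 bp into the gene, was covered in 3 of the 6 lists.

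Ctnnb1 lies on chr9:120929216-120960507 (plus strand), with no other protein-coding gene in its locus, and has 6 annotated starts. Its outermost start had no promoter peak in any replicate list. At the 3 starts from 4184 to 4602 bp, behind the sequence printed above, H3K27ac reached the window in all 3 lists. H3K4me1 reached only the last of these, in 2 of 3 lists. No list had a peak at the 2 starts further in, at 26241 and 26698 bp.
The marks overlapped in part, and H3K4me1 reached further into the gene. The main H3K27ac peaks ran from 5050 to 7529, 5060 to 7010 and 4771 to 6921 bp, with fold enrichments of 2.37, 2.2 and 2.16. The first H3K4me1 peaks past the start cluster began at 5423, 6014 and 5457 bp, and further ones extended the mark to 18761 bp in replicate 3. In replicate 2 a separate H3K27ac peak of 178 bp lay over the start at 4184 bp.
H3K27ac covered 2.82%, 2.27% and 3.38% of the locus and H3K4me1 10.1%, 8.39% and 12.8%. H3K4me1 was 3.69 times as wide, the largest ratio among the 4 genes whose lists did not overlap (exact permutation p = 0.1, adjusted over all genes 0.317). Ctnnb1 had the strongest peaks by share, as 50% of the 34 peaks in its replicate lists were strong peaks.
The only place outside promoter windows covered in all 6 lists was chr9:120935230-120936137, from 6014 to 6921 bp, in an intron. The H3K27ac peaks over it, and the H3K4me1 peaks of replicates 1 and 3, also reached a promoter window. It is named distal only because the stretch itself lay outside these windows. Its central 300 bases, on the plus strand of GRCm38.p6, are given because both marks overlap there.
Ctnnb1 distal, chr9:120935534-120935833, plus strand: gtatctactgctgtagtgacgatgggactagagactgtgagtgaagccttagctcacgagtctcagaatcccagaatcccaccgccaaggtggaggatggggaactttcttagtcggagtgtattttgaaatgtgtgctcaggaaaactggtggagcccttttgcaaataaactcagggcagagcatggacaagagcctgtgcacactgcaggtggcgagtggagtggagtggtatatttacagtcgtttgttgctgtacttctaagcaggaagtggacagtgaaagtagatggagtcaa
The stretch had a GC content of 48.7%, against 74.8% in the 250 bases before the start, and none of the 8 motifs.
The longest such place in Gjc1, chr11:102811319-102811602, measured 284 bp and lay in an intron from 8098 to 8381 bp.
Gjc1 distal, chr11:102811319-102811602, minus strand: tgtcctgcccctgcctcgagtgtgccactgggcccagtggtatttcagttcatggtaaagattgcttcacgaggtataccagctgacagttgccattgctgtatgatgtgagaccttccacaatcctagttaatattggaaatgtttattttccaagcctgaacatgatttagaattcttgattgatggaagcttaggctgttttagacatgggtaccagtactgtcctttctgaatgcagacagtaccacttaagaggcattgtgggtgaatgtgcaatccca
Its GC content was 44.4%, and it too had none of the 8 motifs.

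Regions outside promoters that carried both marks were counted from consensus regions, which are covered in at least 2 of 3 replicates of a mark. The 9 loci held 84 distal H3K27ac consensus regions, and 64 of them, 76.2%, overlapped an H3K4me1 consensus region. Over the genome the share was 61.3% of 63605. Cdh11 had 38 of the 64, Cdh2 21, Gjc1 4 and Gja1 1, and the other 5 genes had 0. All but 3 lay in gene bodies, 61 in number. Sequence with both marks made up 17% of the Cdh11 locus, at the percentile 99.2 of all genes, and 4.81% of the Cdh2 locus, at 84.1. In Gjc1 it made up 3.41% and in Ctnnb1 1.18%, where the median of all genes was 1.11%. Gja1 was below this median, at 0.367%, and Gja4, Gjb2, Cdh5 and Cdh13 were at 0%. Ctnnb1 had 0 such distal regions because its 1 H3K27ac consensus region also touched a promoter window. With strong peaks alone the count was 2, and it was 28 with all 3 replicates of each mark required and 36 without H3K27ac replicate 2.

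The rest of each gene family gives the setting. Of the 16 other connexin genes, 9 had no promoter peak in any replicate list, and 1, Gja5, which encodes connexin 40, had a peak in all 6. H3K27ac was present in all 3 replicates at 1 of the 16 and H3K4me1 at 2. Of the 15 other cadherin genes 5 had no promoter peak, and Cdh10 alone had a peak in all 6 lists. H3K27ac was present in all 3 replicates at 2 of these cadherins and H3K4me1 at 3. Among 13 catenins and junction partners none lacked a promoter peak, and H3K27ac was present in all 3 replicates at 9. Ctnna1, the alpha-catenin that ties beta-catenin to actin, Ctnnd1, the p120-catenin, and Nectin3, a nectin adhesion molecule, had both marks in all 6 lists. The median number of lists with a promoter peak was 0 of 6 for the other connexins, 1 for the other cadherins, 4 for catenins and partners and 3 for all protein-coding genes.

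**Figure D4:**
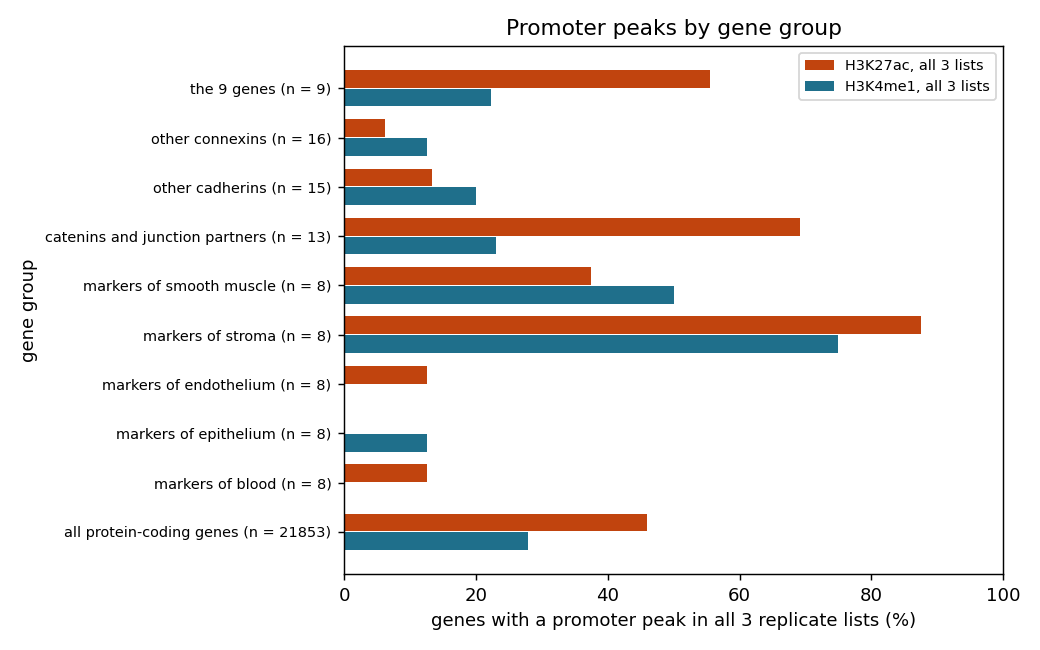
Share of genes with a promoter peak in all 3 replicate lists of H3K27ac (orange) or H3K4me1 (blue), in percent of the genes in each group. The 9 genes stand at 55.6% and 22.2%, and all protein-coding genes at 45.9% and 27.9%.

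The 44 genes of these families were also ranked by how like their promoter coverage was to that of each member, as the mean absolute difference over the 6 replicate lists. Vcl, which encodes vinculin, was nearest to Gja1, at 12.4 percentage points. Ctnna3 was nearest to Gjc1 at 12.4, Gja5 to Cdh2 at 14.6 and Cdh24 to Ctnnb1 at 2.73. Cdh6 was nearest to Cdh5 at 4.94 and to Cdh13 at 0.933. For Cdh11 the nearest, Nectin2, still differed by 20.7 points. Gja4 and Gjb2 were tied at 0 with 14 genes that had no promoter peak at all.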

How the data were processed

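ChIC-Seq libraries of H3K27ac, H3K4me1 and IgG (3 each) came from oviductal muscle cells. The submitters' processing notes name cutadapt, Bowtie2, MACS2 and GRCm38.p5. Per the file headers, the authors called broad peaks with MACS 2.2.7.1 in paired-end mode against IgG, with p-value cutoffs of 0.05 and 0.1, and scaled the larger library to the smaller. The deposited pileup is a coverage signal in fragments at IgG depth. The fold enrichment deposited by the authors is a ratio, pileup over local background, with 1 added to each, which lowers it. The deposited p-values are on the −log10 scale, averaged over a region; the q-value column was not used. The length column deposited by the authors is in bp.

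From these files, overlaps of at least 1 bp with GENCODE M21 gene models were computed in Python 3.11.15 with numpy 2.4.6 and pandas 2.3.3. Covered length was the union of a list's peaks. The 2 marks were compared by exact permutation (two-sided) of the 6 replicate lists, which has 20 arrangements and a smallest p of 0.1. Locus coverage was tested for all 21853 genes and adjusted by the Benjamini-Hochberg method over all of them, in place of the planned adjustment over the 9. Tested on simulated data, 0 of 400 overlaps differed from a count base by base, and 104 of 1000 null comparisons and 200 of 200 planted shifts reached that smallest p. The mitochondrial genes were left out. The depth of IgG limits precision, and fragment counts cover counting error only.

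The members and gene lists were chosen with earlier results of these data known. Named were the 9 genes, list genes with a promoter peak in all 6 lists, and the list genes nearest to a member in promoter coverage. Other genes of the loci and the markers were named after their values were seen. Alternatives were other peak, window and flank limits, each list left out, and pairing by replicate number.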

Additional observations from a re-analysis of the deposited data

How the results depend on the processing

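Of 169 values recomputed under alternatives, 156 kept their direction and, for counts, stayed within 1.5 times. Both numbers include the values paired by replicate number, which equal the main values by construction. For the 9 genes together, promoter peaks per list, promoter coverage and locus coverage kept their direction under all alternatives run. The exact permutation p, which cannot go below 0.1, rose for promoter peaks per list to 0.2 with windows of 250 bp, 0.3 with windows of 3 kb and 0.2 with 50% of a window required. It rose to 0.2 for promoter peaks without H3K4me1 replicate 2 and for locus coverage without H3K4me1 replicate 1 or 2. H3K27ac minus H3K4me1 ranged, when a replicate list was left out, from 2 to 3.17 genes, from 15.4 to 18 percentage points of the promoter windows and from −3.17 to −2.11 points of the loci. With strong peaks alone, the locus difference was −0.793 points, and with promoter windows of 3 kb the promoter difference was 8.33 points.

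The count of members with both marks at the promoter in every replicate, 2, was 0 with windows of 250 bp, with 50% of a window required or with strong peaks, 1 with peaks of at least 5 times the mean coverage, and 4 with 2 of 3 replicates required. Without 1 replicate it was 2 to 4, the higher value without H3K4me1 replicate 2. The 64 double-marked distal regions were 28 with all 3 replicates required and 2 with strong peaks, and 36 to 60 without 1 replicate, lowest without H3K27ac replicate 2. For single loci, H3K27ac minus H3K4me1 turned round to 1.28 points in Gjc1 with strong peaks and to 1.15 in Gjb2 with flanks of 10 kb. Divided by the genome share of each list, the Gjc1 lists overlapped (exact permutation p = 0.3). In Gja4, where it was −0.718, it ranged from −1.17 to 0.182 without 1 replicate, turning without H3K4me1 replicate 1. The causes were not tested.

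Replicate numbers are shared between the marks, but same-numbered lists correlated in their deviations at −0.0881, 0.319 and 0.468 over the loci of all genes, so they were not taken as pairs. Lists called against the same IgG library correlated at 0.319 to 0.468. Pairing by replicate number changes only the test. The differences of 2.67 genes, 16.8 points of promoter windows and −2.61 points of loci were therefore the same by construction. The exact sign-flip p of that pairing cannot go below 0.25. IgG depth, at 3110985 to 3713369 fragments, limits what can be called, and H3K27ac replicate 1 alone had its own IgG library and the lowest threshold, 4.03 times the mean coverage against 4.61 to 4.94.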
